A study of Mus musculus with 10 samples.

Results

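The genes described here encode the contractile unit of striated muscle, the sarcomere, and the structures that hold it together. They are a list of 44 genes, 11 of the thin filament, 5 of the thick filament and titin, 21 of the Z-disc, 4 of the M-band and 3 muscle ring-finger genes, out of 56748 gene identifiers in the tables. The list was drawn up by name and function, with earlier results of these data known, and all 44 symbols were found once each. The thin filament is a chain of actin wound with tropomyosin and troponin, the complex that lets calcium switch contraction on. Thin filaments are anchored in the Z-disc at each end of the sarcomere, thick filaments of myosin are cross-linked at the M-band in its middle, and the giant protein titin spans the distance from one to the other. The muscle ring-finger proteins are ubiquitin ligases that bind sarcomeric proteins. In the heart several of these proteins have a second form, used mainly in skeletal muscle or before birth, so that a ratio of 2 related genes compares 2 forms within a heart. In whole hearts such a ratio can also depend on the mix of chambers and cells.

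RNA was sequenced from whole hearts, atria and ventricles together, of 5 training and 5 sedentary mice. All 10 mice were wild-type C57BL/6 animals obtained at 8 weeks of age, with no transgene. In the paper the mice are described as male. It also describes scans of training and sedentary animals under isoflurane anaesthesia, with an injected tracer, before the hearts were taken. The training mice ran on a motor-driven treadmill at 15 m/min for 120 min per session, 5 days per week, for 8 weeks, and the sedentary mice of the same age did not. The labels give each heart as 1 mouse, and libraries were made from poly-A RNA with strand information and read from one end. Between 29461697 and 35945417 reads were counted on genes in a training heart and between 35196993 and 39431030 in a sedentary heart. Multimapping reads, which are not in the counts, made up 17.9% to 19.2% of the reads. Levels are given as CPM, counts divided by the library's total and scaled by the trimmed mean of M-values, and comparisons between genes use TPM, a share of transcripts that also divides by gene length. A gene was called when its Benjamini-Hochberg adjusted p (FDR) in edgeR's quasi-likelihood test over all genes was below 0.1. Fold changes are training over sedentary, so that a negative log2 value means lower after training.

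Most of the sarcomere genes that passed the test were lower in the training hearts, and 2 were higher. Of 43 members tested, 11 were called (25.6%), 9 lower and 2 higher, whereas 7.01% of the 15454 genes tested were called, 4.26% lower and 2.75% higher. The called genes that were lower were Actc1, Acta1 and Tnnc1 of the thin filament, Ldb3, Pdlim1, Pdlim5 and Cavin4 of the Z-disc, Myom1 of the M-band and the ring-finger gene Trim54. The called genes that were higher were Tnni1, slow skeletal troponin I, and Myom2, a second myomesin. Over the 43 members the median log2 fold change was -0.10, with 31 below 0 and 12 above, whereas the median over all genes tested was 0.00026 and 49.9% of them lay below 0. The 8 general cardiomyocyte markers described below had a median of -0.11, so a lean of this size is not particular to the members. With libraries scaled by their totals alone, 5 members were called lower and 2 higher (339 and 1029 of all genes, against 659 and 425 with the scaling used here), and the medians were -0.048 for the members and 0.053 for all genes. Some small changes also had another direction in TPM, which were not tested. Myl2, with a log2 fold change of -0.11, averaged 10280 TPM in training and 9589 TPM in sedentary hearts. Actc1 was lower on both scales, at 6208 TPM in training and 7608 TPM in sedentary hearts. For 5 members (11.6%) no training heart overlapped any sedentary heart, against 5.06% of all genes tested (2.94% with training lower and 2.12% with training higher). These 5 were Tnnc1, Ldb3, Myom1 and Trim54, with every training heart below every sedentary heart, and Tnni1, with every training heart above. Myoz1 was not tested because only 3 to 9 reads fell on it in a heart. In bulk tissue, fewer cells of a type and less RNA per cell cannot be told apart.

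**Figure D1:**
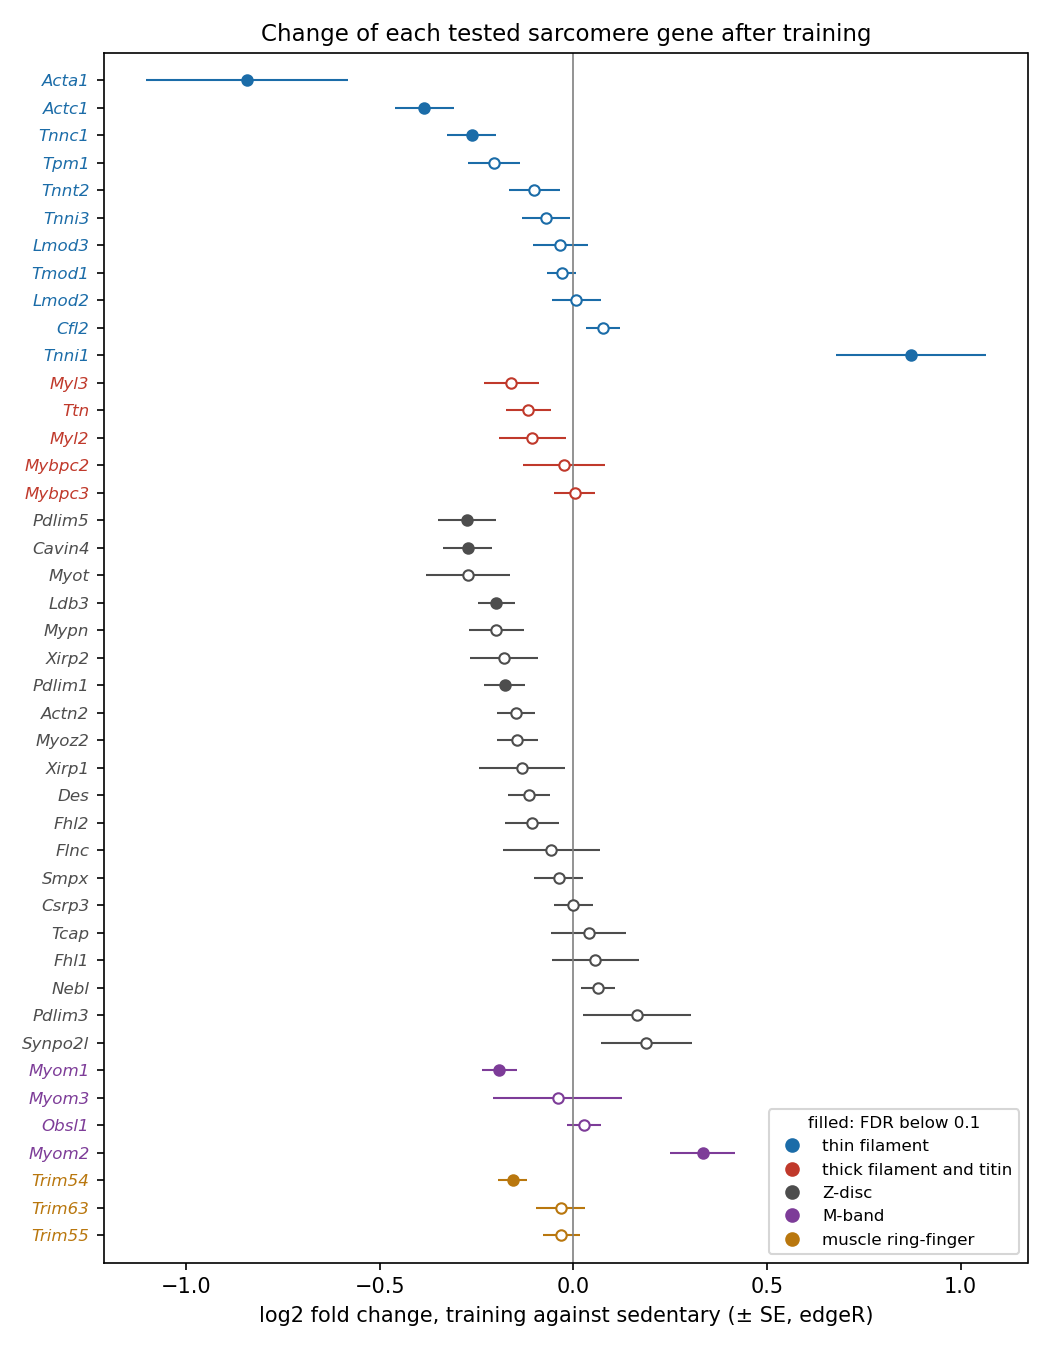
Log2 fold change of the 43 tested sarcomere genes, training over sedentary, on the horizontal axis, with 1 gene per line grouped by class. Points are edgeR estimates, bars are ± SE, and filled points passed FDR below 0.1. Of the 11 filled points 9 lie left of 0, and Myom2 and Tnni1 lie right of it.

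The order of levels among the genes was led by the proteins of the filaments themselves. Per length, Myl2, the ventricular regulatory light chain of myosin, had the highest mean TPM over the 10 hearts (9934), followed by Actc1, cardiac alpha-actin (6908), Tnnt2, cardiac troponin T (6747), Tpm1, alpha-tropomyosin (5327), and Tnni3, cardiac troponin I (4701). Myl2 in TPM ran from 8273 to 10657 in sedentary hearts and from 9223 to 10611 in training hearts, above all other members in every heart. The highest Z-disc levels were those of Csrp3, muscle LIM protein, at 1223 TPM and Tcap, telethonin, at 1051 TPM. At the lower end, Mybpc2, Myom3, Tnni1 and Myoz1, which are forms of skeletal muscle or of the immature heart, stood at 8.21, 1.51, 1.12 and 0.226 TPM. Together the 44 genes took 4.82% to 5.25% of all TPM in training hearts and 4.92% to 5.37% in sedentary hearts, 2 ranges that overlap.

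**Figure D2:**
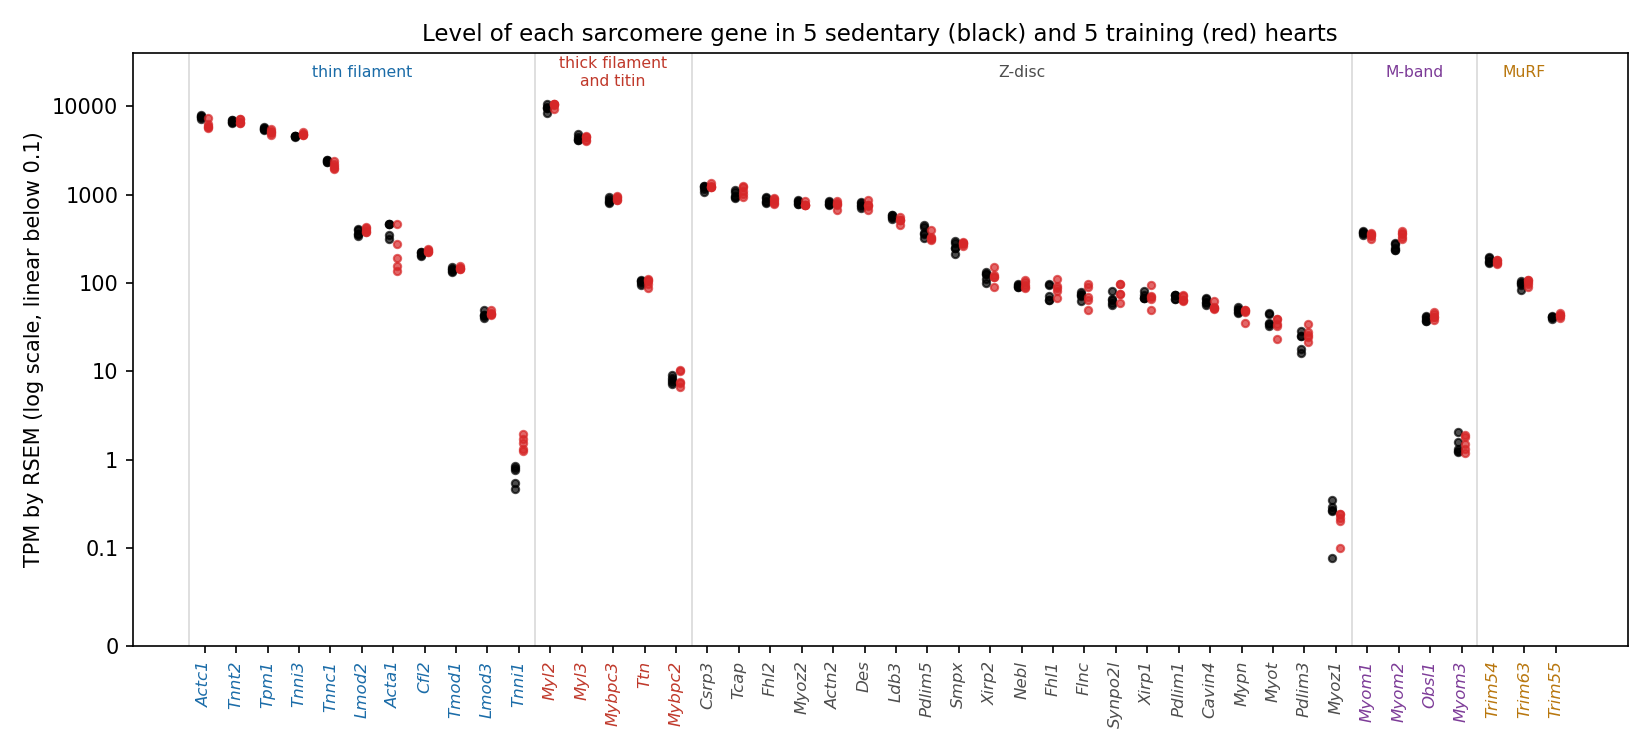
TPM of each of the 44 genes (vertical axis, log scale above 0.1 and linear below) in 5 sedentary hearts (black) and 5 training hearts (red), in order of mean level within each class; each point is 1 heart. Levels run from 9934 TPM for Myl2 to 0.226 TPM for Myoz1, and within a gene the groups mostly lie on one another.

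The DNA just before the members' starts was searched for 3 short motifs known from muscle promoters. They were the CArG box (the binding sequence of serum response factor), the MEF2 site and the MCAT motif (CATTCC, or GGAATG on the other strand). Because the motifs were picked as known from muscle promoters, a higher share among muscle genes than among all genes does not bear on training. The windows, from a RefSeq table of build GRCm38.p6, cover 250 bases before and 50 after each listed start, and 37 of the 44 members have one. Both strands were searched, and in the members' windows no match overlapped a match of another motif. A CArG box was present in the windows of 8 of the 37 members (21.6%), against 1.6% of 11199 tested genes with windows. Among called members it was found in 4 of 10, namely Acta1, Actc1, Ldb3 and Myom1, and among the rest in 4 of 27. The latter were Fhl1, Fhl2, Myl3 and Nebl, with log2 fold changes of 0.06, -0.11, -0.16 and 0.06. A MEF2 site was present in 7 of the 37 (18.9%, against 2.47% of tested genes), all of them members that were not called, and an MCAT motif in 14 (37.8%, against 14.9%), 3 of them called. The 150 bases before the listed start are printed for the 4 called members with a CArG box, 5′ to 3′ on the gene's own strand, with matches in capitals. They lie at chr8:123894776-123894925 on the minus strand for Acta1, chr2:114052876-114053025 on the minus strand for Actc1, chr14:34588682-34588831 on the minus strand for Ldb3 and chr17:71019407-71019556 on the plus strand for Myom1.
Acta1: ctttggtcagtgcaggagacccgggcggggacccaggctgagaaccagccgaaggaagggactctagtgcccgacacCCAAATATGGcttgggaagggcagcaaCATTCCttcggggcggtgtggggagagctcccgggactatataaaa
Actc1: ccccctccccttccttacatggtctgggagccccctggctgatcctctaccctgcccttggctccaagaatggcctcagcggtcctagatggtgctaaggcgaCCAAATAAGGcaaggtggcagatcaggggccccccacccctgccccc
Ldb3: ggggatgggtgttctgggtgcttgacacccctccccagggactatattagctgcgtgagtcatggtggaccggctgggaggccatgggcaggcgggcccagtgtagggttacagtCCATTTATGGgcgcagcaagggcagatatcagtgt
Myom1: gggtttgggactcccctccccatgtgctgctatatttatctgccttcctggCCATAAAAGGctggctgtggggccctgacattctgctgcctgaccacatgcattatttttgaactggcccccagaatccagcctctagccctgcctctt
The box begins 73 bases before the listed start in Acta1, 47 in Actc1, 35 in Ldb3 and 99 in Myom1 (Ldb3 has another listed start, from which its box is 109 bases away), and the second run of capitals in Acta1 is an MCAT motif at base 46. A match describes the letters of the window and is not evidence of a bound site.

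Of the 11 thin filament genes, 3 fell (Actc1, Acta1 and Tnnc1), 1 rose (Tnni1), and 7 did not pass the test by edgeR. DESeq2 also called Tpm1 lower and did not call Acta1, and it gave Tnni1 no adjusted p. The median log2 fold change of the class was -0.07.

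Actc1 encodes the main actin of the heart (chr2:113876266-113884043 of GRCm39, minus strand). It was counted at 9228, 10527, 10108, 11431 and 11057 CPM in sedentary hearts 1 to 5 and 7777, 9516, 7777, 7637 and 7402 CPM in training hearts 1 to 5. Sedentary hearts averaged 10470.0 ± 858 CPM (SD, n = 5) and training hearts 8022 ± 849 CPM (SD, n = 5), a log2 fold change of -0.38 ± 0.077 (SE, edgeR FDR 0.0220), so the level fell by 23.4%. Training heart 2 stood apart from the other 4 training hearts and above sedentary heart 1, which was the lowest of its group, and this is the only overlap. Leaving out any 1 heart kept the call (10 fits, log2 fold change -0.45 to -0.35). It was lost with the level of atrial marker genes as a covariate, described with the cell markers (edgeR FDR 0.235), and without sedentary hearts 2 and 5 (edgeR FDR 0.123).

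Acta1, skeletal alpha-actin, is the second actin of the heart and is used more before birth (chr8:124618501-124623661, minus strand). It was present at 594, 646, 606, 441 and 490.2 CPM in sedentary hearts 1 to 5 and 184, 586, 343, 198 and 237 CPM in training hearts 1 to 5. The mean was 556 ± 86.3 CPM in sedentary and 309.7 ± 167 CPM in training hearts (SD, n = 5 each), a log2 fold change of -0.84 ± 0.26 (SE, edgeR FDR 0.0935), the largest fall among the members. Training hearts 1, 4 and 5 were below every sedentary heart by a wide margin, training heart 3 was also below all of them, and training heart 2 lay inside the sedentary range. The call held without training heart 2 and was lost in the other 9 fits that left out 1 heart (edgeR FDR 0.0055 to 0.194 over the 10 fits), and the log2 fold change stayed between -1.21 and -0.70. Acta1 was also not called by DESeq2 (adjusted p 0.139) or with libraries scaled by their totals alone (edgeR FDR 0.105). Acta1 and Actc1 have nearly the same coding sequence, so reads that match both were not counted here. In the deposited estimated counts of RSEM, a tool that shares reads out among similar transcripts, the log2 fold change of Acta1 was -0.85 (edgeR FDR 0.108) and that of Actc1 -0.39 (edgeR FDR 0.0271).

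Tnnc1, the calcium-binding troponin C of heart and slow muscle (chr14:30930232-30933708, plus strand), was present at 1468, 1566, 1534, 1565 and 1553 CPM in sedentary hearts 1 to 5 and 1421, 1417, 1229, 1217 and 1122 CPM in training hearts 1 to 5. Sedentary hearts lay close together at 1537 ± 40.9 CPM and training hearts were spread more widely at 1281 ± 132 CPM (SD, n = 5 each). All 5 training hearts were below all 5 sedentary hearts, with a log2 fold change of -0.26 ± 0.063 (SE, edgeR FDR 0.0406). Without training heart 4 the change was -0.24 and its edgeR FDR 0.104, and over the 10 fits that left out 1 heart the FDR ran from 0.0253 to 0.104.

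Tnni1, slow skeletal troponin I, is the form the heart uses before birth and replaces with Tnni3 afterwards (chr1:135707172-135738727, plus strand). It was detected at 0.522, 0.584, 0.799, 0.967 and 0.575 CPM in sedentary hearts 1 to 5 and 1.53, 1.20, 1.07, 1.37 and 1.13 CPM in training hearts 1 to 5. These levels rest on 20 to 54 reads per heart. Every training heart was above every sedentary heart, although training heart 3 and sedentary heart 4 came close, and the means were 1.26 ± 0.188 CPM in training and 0.689 ± 0.188 CPM in sedentary hearts (SD, n = 5 each). The log2 fold change was 0.87 ± 0.19 (SE, edgeR FDR 0.0307), and leaving out any 1 heart kept the call. With the atrial covariate (edgeR FDR 0.269) and without sedentary hearts 2 and 5 (edgeR FDR 0.162) the call was lost.

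Tnni3, cardiac troponin I, did not pass the test, at 2945, 3274, 3149.5, 3423 and 3444 CPM in sedentary hearts 1 to 5 and 3465, 3024, 2998, 3140.3 and 2838 CPM in training hearts 1 to 5 (log2 fold change -0.07, edgeR FDR 0.575). It shares its strand with a neighbouring gene, Dnaaf3, and reads in the shared stretch were assigned to neither. In TPM, which were not tested, Tnni3 lay the other way. It ran from 4516 to 4591 TPM in sedentary hearts and from 4686 to 5132 TPM in training hearts. Tpm1 had a log2 fold change of -0.20 (edgeR FDR 0.112). It was called lower by DESeq2 (adjusted p 0.0367) and by edgeR without a filter on low counts (FDR 0.0660), without training heart 1 (FDR 0.0423) or without sedentary heart 1 (FDR 0.0457), and over the 10 fits that left out 1 heart the FDR ran from 0.0423 to 0.215. Tnnt2 had a log2 fold change of -0.10. Leiomodins lengthen the thin filament at its free end, tropomodulin caps that end and cofilin 2 severs actin. Lmod2, Lmod3, Tmod1 and Cfl2 had log2 fold changes of 0.01, -0.03, -0.03 and 0.08, within the spread of the hearts.

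**Figure D3:**
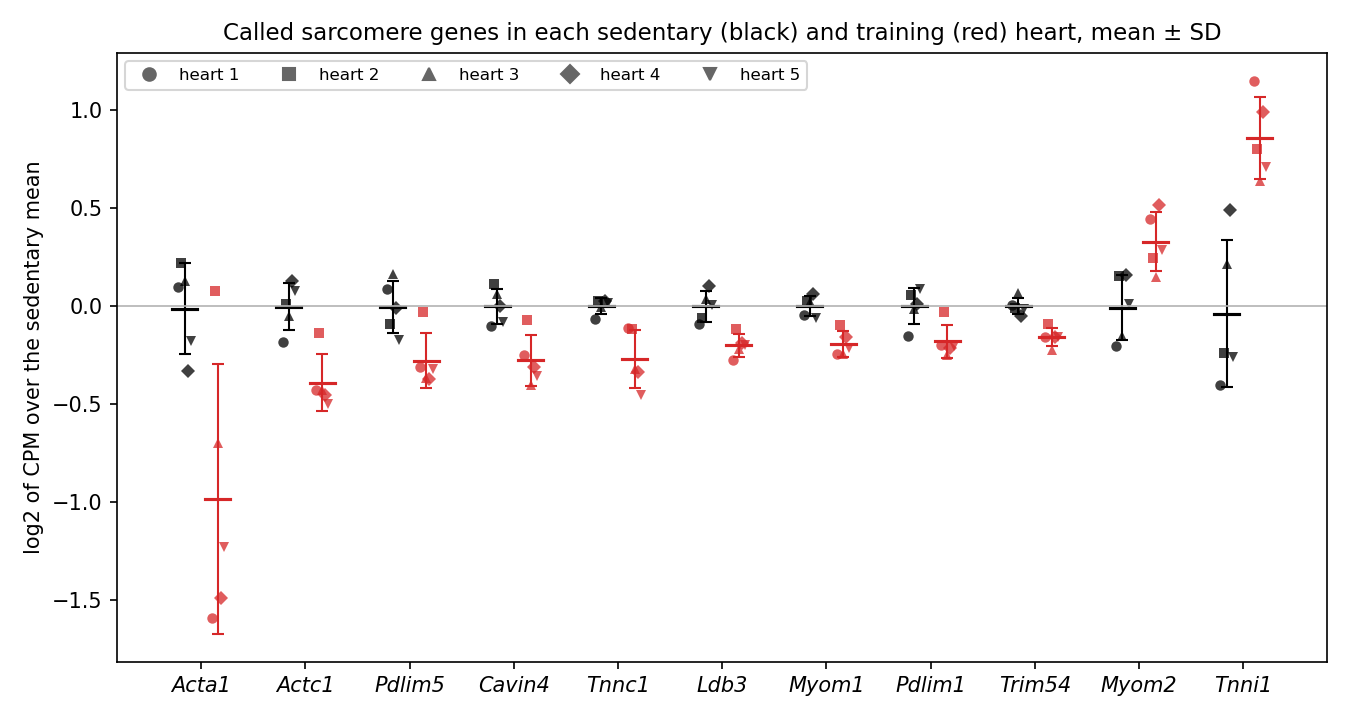
Log2 of the CPM in each heart over the mean of the 5 sedentary hearts, for the 11 called members in order of fold change; symbols mark hearts 1 to 5 of each group, and the horizontal lines and bars are the group mean ± SD. Training heart 2 (red square) is the highest training heart in 8 of the 9 members that fell, and in Acta1 it lies inside the sedentary range.

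None of the 5 genes of the thick filament and titin was called by edgeR, 1 had an unadjusted p under 0.05 (Myl3), and DESeq2 called none. Their log2 fold changes ran from -0.16 to 0.0033, with a median of -0.11.

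Myl2 was present at 4130.0, 5594, 4948, 5280.2 and 5357 CPM in sedentary hearts 1 to 5 and 5443, 4769.5, 4283, 4789 and 4237 CPM in training hearts 1 to 5, a log2 fold change of -0.11 ± 0.086 (SE, edgeR FDR 0.542). The sedentary hearts spanned the whole range of Myl2, with heart 1 the lowest of all 10 and heart 2 the highest. The summed CPM of 8 atrial marker genes was 7044 in sedentary heart 1, the highest of its group, and 2931 in sedentary heart 2, the lowest of its group. In the training group the sums did not order Myl2 in that way. Training heart 3 had the highest sum of its group (7831) and training heart 5 the lowest (5219), and both were low in Myl2 (4283 and 4237 CPM). Myl2 is a ventricular light chain, and the part of the atrial share in its spread was not tested.

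Ttn, titin, had the highest CPM of this class, a scale that does not divide by length, at 6691, 6641, 6917, 7589 and 7057 CPM in sedentary hearts 1 to 5 and 5916, 6787, 6399, 6201 and 6889 CPM in training hearts 1 to 5 (log2 fold change -0.12 ± 0.058, SE, edgeR FDR 0.278). Training hearts 1, 3 and 4 were the lowest and sedentary hearts 3, 4 and 5 the highest. Sedentary hearts 1 and 2 and training hearts 2 and 5 lay between them. Myl3, the ventricular essential light chain, had a log2 fold change of -0.16 and was called lower by edgeR in 1 of the 10 fits that left out 1 heart, without sedentary heart 1 (FDR 0.0955, against 0.0955 to 0.405). The cardiac myosin binding protein Mybpc3 was counted at 3639.7, 4043, 3531, 3532 and 3625 CPM in sedentary hearts 1 to 5 and 3793, 3833, 3388, 3739 and 3659 CPM in training hearts 1 to 5, 3674 ± 212 CPM in sedentary and 3683 ± 177 CPM in training hearts (SD, n = 5 each). Its skeletal relative Mybpc2 was counted at 30.9, 26.5, 26.3, 31.5 and 29.8 CPM in sedentary hearts 1 to 5 and 24.3, 35.6, 32.8, 25.7 and 24.0 CPM in training hearts 1 to 5. Neither differed by more than the spread of the hearts (log2 fold changes 0.0033 and -0.02).

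Myosin heavy chains are not in the list but set the context for the thick filament. Myh6, the main heavy chain of the adult mouse heart, averaged 29353 ± 1214 CPM in sedentary and 27236 ± 553 CPM in training hearts (SD, n = 5 each, log2 fold change -0.11, edgeR FDR 0.265). Myh7, the slow heavy chain of the fetal mouse heart, averaged 109.6 ± 25.4 CPM in sedentary and 252 ± 74.7 CPM in training hearts (SD, n = 5 each), with every training heart above every sedentary heart and a log2 fold change of 1.20 ± 0.18 (SE, edgeR FDR 0.00871).

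At the Z-disc, 4 of 20 tested genes fell (Cavin4, Pdlim5, Ldb3 and Pdlim1), none rose, and 16 did not pass the test by edgeR. DESeq2 called these 4 and also Actn2, Myoz2 and Mypn lower. For the rise, edgeR's count of 0 stands beside 0 genes above 0 at an unadjusted p under 0.05 and 0 called higher by DESeq2. The median log2 fold change was -0.12, with 14 genes below 0 and 6 above.

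Cavin4, also called MURC, is a caveolar coat protein of muscle that is found at the Z-disc (chr4:48663503-48674045, plus strand). It was present at 113, 131, 126, 121 and 114 CPM in sedentary hearts 1 to 5 and 102, 115, 91.4, 97.5 and 94.6 CPM in training hearts 1 to 5. The means were 121 ± 7.66 CPM in sedentary and 100.1 ± 9.32 CPM in training hearts (SD, n = 5 each), a log2 fold change of -0.27 ± 0.063 (SE, edgeR FDR 0.0343). Training heart 2 alone reached the sedentary range, just above sedentary hearts 1 and 5, and no single left-out heart ended the call. With the atrial covariate (edgeR FDR 0.361) and without sedentary hearts 2 and 5 (edgeR FDR 0.130) the call was lost.

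Pdlim5, or ENH, and Pdlim1, or CLP36, carry a PDZ domain that binds alpha-actinin and LIM domains that bind signalling proteins. Pdlim5 (chr3:141945345-142101830, minus strand) was counted at 746, 658, 784, 698 and 621 CPM in sedentary hearts 1 to 5 and 566, 686, 545, 543 and 561 CPM in training hearts 1 to 5, a log2 fold change of -0.27 ± 0.075 (SE, edgeR FDR 0.0628). Training heart 2 again lay among the sedentary hearts, and the other 4 training hearts were below all of them. The call held in 4 of the 10 fits that left out 1 heart, those without training heart 2 and without sedentary heart 1, 2 or 5 (edgeR FDR 0.0188 to 0.156 over the 10).

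Pdlim1 (chr19:40209617-40260533, minus strand) was lower in level, at 43.2, 49.8, 47.5, 48.3 and 51.0 CPM in sedentary hearts 1 to 5 and 41.8, 46.9, 40.3, 41.4 and 41.6 CPM in training hearts 1 to 5. Its log2 fold change was -0.18 ± 0.054 (SE, edgeR FDR 0.0877), with training heart 2 above sedentary heart 1 and no other overlap. This call held in 2 of the 10 fits, without training heart 2 and without sedentary heart 1 (edgeR FDR 0.0312 to 0.188). With the level of atrial marker genes as a covariate, described with the cell markers, the log2 fold change was -0.069 (edgeR FDR 0.683). The related Pdlim3, or ALP, had a log2 fold change of 0.16.

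Ldb3 encodes cypher, also called ZASP, a further PDZ and LIM protein that binds alpha-actinin (chr14:34248056-34312351, minus strand). It was present at 1171, 1198, 1281, 1342 and 1252 CPM in sedentary hearts 1 to 5 and 1031, 1152, 1071, 1096 and 1089.5 CPM in training hearts 1 to 5. Sedentary hearts averaged 1249 ± 67.8 CPM and training hearts 1088 ± 43.9 CPM (SD, n = 5 each), with no overlap and a log2 fold change of -0.20 ± 0.048 (SE, edgeR FDR 0.0406). Without sedentary heart 3 the change was -0.18 and the edgeR FDR 0.116, against 0.0213 to 0.116 over the 10 fits. Its upstream sequence is among the 4 printed above.

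Actn2, alpha-actinin 2, which cross-links the actin of neighbouring sarcomeres, had the highest CPM of the class. It stood at 2229.8, 2306, 2392, 2384 and 2324 CPM in sedentary hearts 1 to 5 and 1951, 2284, 2025, 2128 and 2110.4 CPM in training hearts 1 to 5, a log2 fold change of -0.15 ± 0.049 (SE, edgeR FDR 0.114). Of the training hearts 4 were below all sedentary hearts and training heart 2 was among them, with means of 2327 ± 65.9 CPM in sedentary and 2099.5 ± 125 CPM in training hearts (SD, n = 5 each). Actn2 was called by DESeq2 (adjusted p 0.0276) and by edgeR without training heart 2 (FDR 0.0527) or without sedentary heart 1 (FDR 0.0753), and over the 10 fits that left out 1 heart the FDR ran from 0.0527 to 0.243.

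Csrp3, with the highest TPM of the class, had equal group means, at 942, 982, 965, 952 and 871 CPM in sedentary hearts 1 to 5 and 987, 1012, 909.7, 921 and 884 CPM in training hearts 1 to 5. These average 943 CPM in each group (SD 42.5 and 54.2, n = 5 each) and the log2 fold change was 0.00 ± 0.050 (SE, edgeR FDR 1.00). Myoz2, myozenin 2, a binding partner of calcineurin and alpha-actinin in the heart, was present at 838, 959, 874, 880.3 and 856 CPM in sedentary hearts 1 to 5 and 843, 854, 756, 784 and 751 CPM in training hearts 1 to 5 (log2 fold change -0.14, edgeR FDR 0.144). It was called lower by DESeq2 (adjusted p 0.0785) and by edgeR without training heart 2 (FDR 0.0935), and over the 10 fits that left out 1 heart the FDR ran from 0.0935 to 0.277. Its skeletal relative Myoz1 was near the limit of detection, at 0.224, 0.234, 0.106, 0.142 and 0.247 CPM in sedentary hearts 1 to 5 and 0.255, 0.115, 0.0803, 0.187 and 0.199 CPM in training hearts 1 to 5.

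The remaining Z-disc genes did not pass the test by edgeR, and of these DESeq2 called Mypn (adjusted p 0.0959). Below 0 were Myot (-0.27, myotilin), Mypn (-0.20, myopalladin), Xirp2 (-0.18) and Xirp1 (-0.13), both Xin proteins, Des (-0.11, desmin, the intermediate filament that links Z-discs), Fhl2 (-0.11), Flnc (-0.06, filamin C) and Smpx (-0.04). Above 0 were Tcap (0.04), Fhl1 (0.06), Nebl (0.06, nebulette, a ruler-like actin-binding protein) and Synpo2l (0.19). Mypn was also called by edgeR without a filter on low counts (FDR 0.0838) and without sedentary heart 1 (FDR 0.0664), Myot without the filter (FDR 0.0904), and Des and Xirp2 without training heart 2 (FDR 0.0640 and 0.0960). The sedentary hearts differed little in Des, from 2011 to 2079.8 CPM, whereas the training hearts ran from 1796 to 2154 CPM. For Flnc the training hearts ranged from 455 to 788 CPM and enclosed all sedentary hearts.

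**Figure D4:**
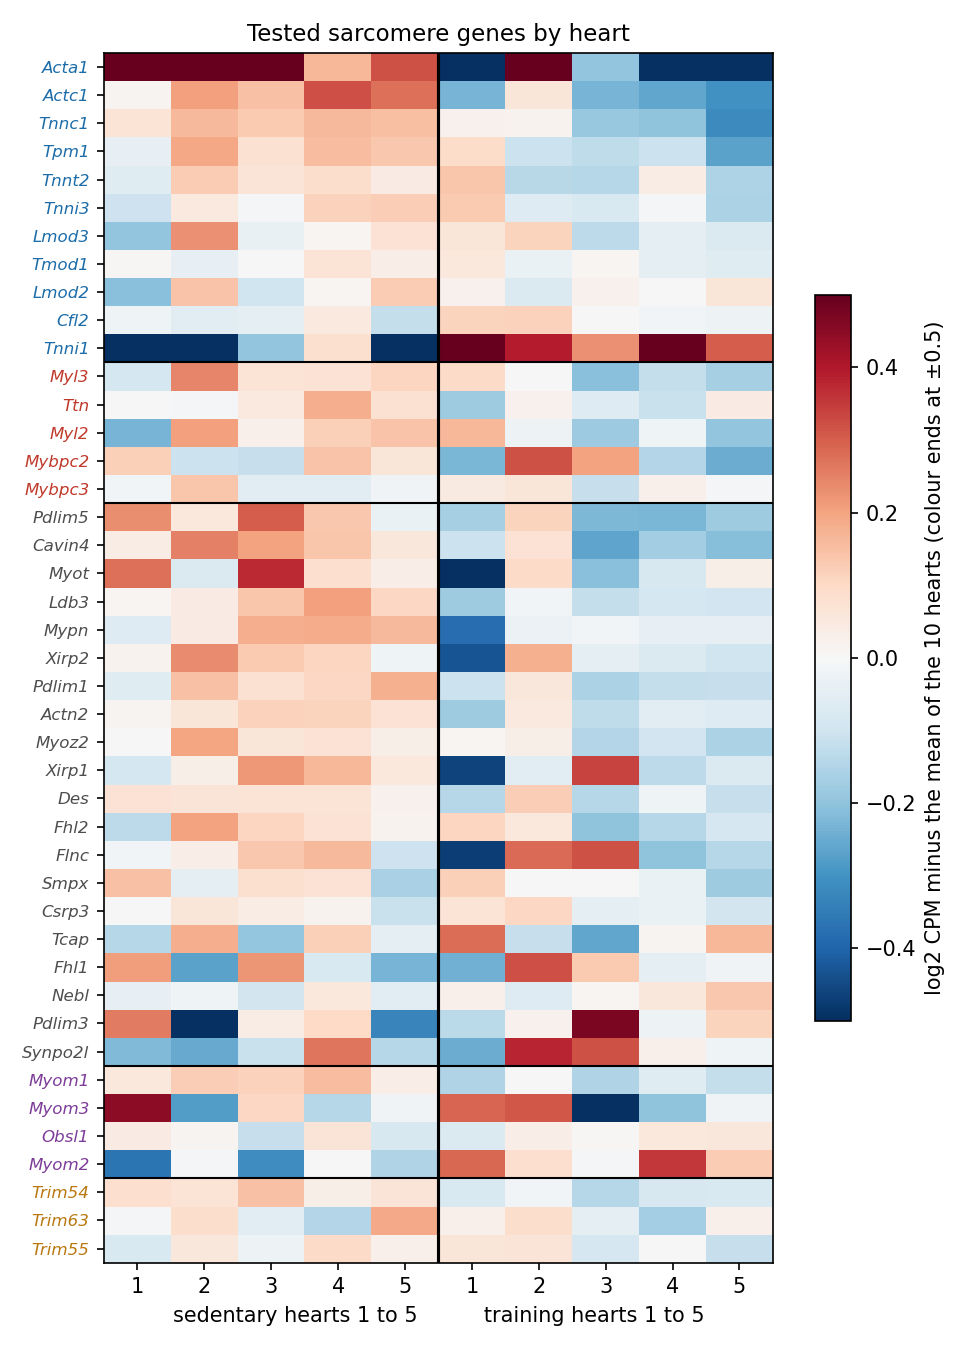
Log2 CPM of each tested gene in each heart minus the mean of the 10 hearts, with sedentary hearts 1 to 5 on the left and training hearts 1 to 5 on the right; blue is below and red above the mean, and the colour ends at ±0.5. Genes are grouped by class and ordered by fold change; training heart 2 is redder than the other training hearts in many lines and is the highest of its group in 23 of the 43 genes.

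The M-band showed opposite changes of its 2 main genes. Myom1, myomesin 1, the protein that cross-links thick filaments in every striated muscle (chr17:71309628-71434802, plus strand), was present at 1879, 1976, 1966, 2020.2 and 1856 CPM in sedentary hearts 1 to 5 and 1634, 1815, 1635, 1738 and 1671 CPM in training hearts 1 to 5. All training hearts were below all sedentary hearts, at 1699 ± 77.7 against 1939 ± 69.2 CPM (SD, n = 5 each), a log2 fold change of -0.19 ± 0.046 (SE, edgeR FDR 0.0402). Without sedentary heart 3 the change was -0.18 and the edgeR FDR 0.110, the highest over the 10 fits.

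Myom2, or M-protein, the myomesin of fast muscle and adult heart (chr8:15107272-15183541, plus strand), was present at 1091, 1396, 1132, 1403 and 1266 CPM in sedentary hearts 1 to 5 and 1712, 1488, 1395, 1796 and 1536 CPM in training hearts 1 to 5. The means were 1585 ± 165 CPM in training and 1258 ± 145 CPM in sedentary hearts (SD, n = 5 each), and the log2 fold change was 0.33 ± 0.084 (SE, edgeR FDR 0.0475). Training heart 3 was just below sedentary hearts 2 and 4, and the other 4 training hearts were above all sedentary hearts. The call was lost without training heart 4 (log2 fold change 0.29, edgeR FDR 0.116) and without sedentary heart 3 (0.30, edgeR FDR 0.119), and the FDR over the 10 fits ran from 0.0501 to 0.119. Myom3, myomesin 3, and Obsl1, which binds titin and myomesin, did not pass the test, with log2 fold changes of -0.04 and 0.03.

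Among the 3 muscle ring-finger genes, Trim54 fell and Trim55 and Trim63 did not pass the test. Trim54, or MuRF3, which also binds microtubules (chr5:31273911-31298846, plus strand), was present at 256, 253, 267, 246 and 252 CPM in sedentary hearts 1 to 5 and 229, 239, 218, 228 and 229 CPM in training hearts 1 to 5. The hearts within a group differed little, at 255 ± 7.64 CPM in sedentary and 229 ± 7.27 CPM in training hearts (SD, n = 5 each), and the groups did not overlap. The log2 fold change was small, -0.16 ± 0.038 (SE, edgeR FDR 0.0405), and without sedentary heart 3 it was -0.13 with an edgeR FDR of 0.122, the highest over the 10 fits. Trim63, or MuRF1, the best known ligase of muscle atrophy, ran from 155 to 185 CPM in training and from 158 to 199 CPM in sedentary hearts, and Trim55, or MuRF2, from 95.5 to 108 and from 98.2 to 111 CPM. Both had a log2 fold change of -0.03.

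Ratios of related genes within a heart do not depend on the scaling of the libraries. They were not run with the level of atrial marker genes as a covariate or without sedentary hearts 2 and 5. The 6 ratios, of counts per length with 0.5 added to each count, were put to a two-sided, exact permutation test that enumerates the 252 divisions of 10 hearts into 5 and 5, in which 0.00794 is the smallest p possible, with adjustment over the 6. The share of Myom2 in the sum of Myom2 and Myom1 was 38.8%, 43.6%, 38.3%, 42.7% and 41.9% in sedentary hearts 1 to 5 and 54.0%, 47.2%, 48.1%, 52.8% and 50.8% in training hearts 1 to 5. It averaged 50.6% ± 2.94 in training and 41.1% ± 2.38 in sedentary hearts (SD, n = 5 each) with no overlap, a 1.47-fold higher ratio (exact permutation p = 0.00794, adjusted 0.0238). In training hearts 1, 4 and 5 Myom2 exceeded Myom1, which it did in no sedentary heart.

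The share of Tnni1 in the sum of Tnni1 and Tnni3 was 0.0131%, 0.0184%, 0.0178%, 0.0198% and 0.0121% in sedentary hearts 1 to 5 and 0.0365%, 0.0331%, 0.0269%, 0.0287% and 0.0347% in training hearts 1 to 5. The ratio was 1.99-fold higher in training hearts, again with no overlap (exact permutation p = 0.00794, adjusted 0.0238), while the share of Tnni1 was at most 0.0365% in any heart. The share of Acta1 in the sum of both actins was 6.17%, 5.92%, 5.78%, 3.8% and 4.34% in sedentary hearts 1 to 5 and 2.37%, 5.92%, 4.31%, 2.58% and 3.17% in training hearts 1 to 5. It averaged 3.67% ± 1.47 in training and 5.20% ± 1.06 in sedentary hearts (SD, n = 5 each), with training heart 2 as high as the sedentary hearts, and the ratio did not pass the test (log2 difference -0.59, exact permutation p = 0.0873, adjusted 0.175). Without training heart 2 the log2 difference was -0.79 (adjusted exact permutation p = 0.0635).

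The other 3 ratios did not pass the test. Lmod3 made up 10.1% ± 0.889 of the leiomodins in training and 10.3% ± 0.351 in sedentary hearts, Mybpc2 0.890% ± 0.180 and 0.909% ± 0.106 of both binding proteins, and Myoz1 0.0334% ± 0.0193 and 0.0332% ± 0.0105 of both myozenins (SD, n = 5 each). Lmod2 was present at 621, 792, 670.5, 723 and 784 CPM in sedentary hearts 1 to 5 and 729, 682, 729.9, 719.7 and 749 CPM in training hearts 1 to 5, and Lmod3 at 80.0, 107.4, 89.5, 92.3 and 96.5 CPM in sedentary hearts 1 to 5 and 95.8, 99.2, 83.9, 88.9 and 87.2 CPM in training hearts 1 to 5. Their adjusted exact permutation p were 0.774 for the leiomodins and 0.865 for both other pairs.

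**Figure D5:**
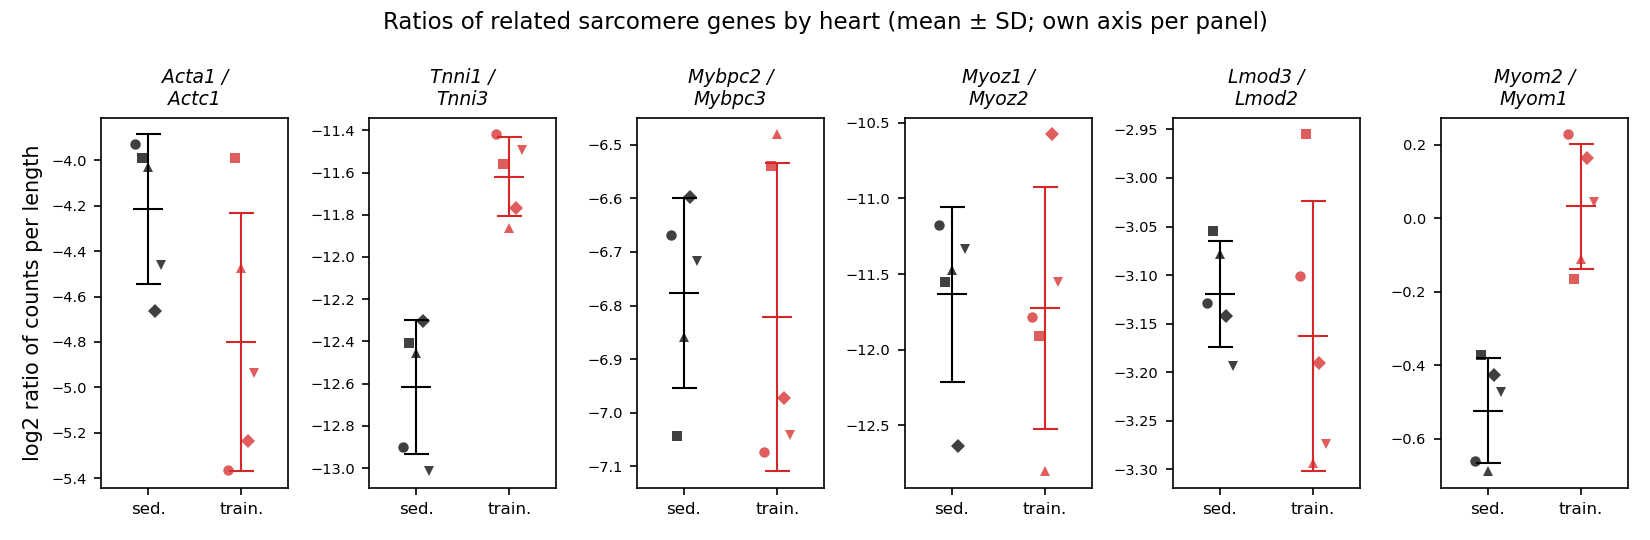
Log2 ratio of counts per length in each heart for 6 pairs of related genes, sedentary hearts in black and training hearts in red, with the mean ± SD as bars and symbols for hearts 1 to 5 (circle, square, triangle, diamond, inverted triangle); each panel has its own axis. Tnni1 to Tnni3 and Myom2 to Myom1 show no overlap between the groups, and the other 4 pairs do.

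A wider list of 41 sarcomere genes outside the 44 was read beside them, and 36 were tested. Of these 5 fell and 1 (Myh7) rose, with a median log2 fold change of -0.07. Over all genes tested 4.26% were called lower and 2.75% higher. Those that fell, named here after their values were seen, were Pdlim7 (-0.27), a relative of Pdlim5, Synpo2 (-0.26), Nexn (-0.20), a Z-disc actin-binding protein, Smyd1 (-0.16), a muscle methyltransferase, and Capzb (-0.14), which caps actin at the Z-disc.

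Cell markers were read to see what else moved with the groups. Beside the counts given here, edgeR called 4.26% of all genes tested lower and 2.75% higher. All 8 atrial genes of the marker list lay above 0, 3 of them called (Sln, Kcnj3 and Stard10), with a median log2 fold change of 0.47, and their summed CPM ran from 5219 to 7831 in training and from 2931 to 7044 in sedentary hearts, the lowest being sedentary hearts 2 and 5 at 2931 and 2975. The mean log2 level of these genes, each centred over the 10 hearts, ran from 0.037 to 0.63 in training and from -0.90 to 0.32 in sedentary hearts. It differed with the group, so a fit that includes it cannot fully tell it apart from training. With this mean as a covariate no member was called by edgeR, 13 had an unadjusted p under 0.05, and 88 genes were called among the 15454 (this fit was not run in DESeq2). All 11 called members kept their direction in that fit, with edgeR FDR from 0.123 to 0.683. The log2 fold changes were then -0.29 for Actc1, -0.70 for Acta1, -0.22 for Tnnc1, -0.19 for Ldb3, -0.069 for Pdlim1, -0.32 for Pdlim5, -0.19 for Cavin4, -0.17 for Myom1, -0.14 for Trim54, 0.43 for Myom2 and 0.79 for Tnni1. Of the 11, Pdlim1 and Cavin4 shrank the most in proportion, from -0.18 and -0.27, whereas Myom2 and Pdlim5 were larger than without the covariate. In a fit without sedentary hearts 2 and 5, chosen after seeing the data, 2 members were called by edgeR, Myom2 and Pdlim5 (calls over all genes fell to 1.79% in that fit), and all 11 kept their direction. The part of the atrial share in these differences was not tested further. Of 8 general cardiomyocyte markers, all below 0, 1 was called by edgeR (Ckm, lower) and 3 were called lower by DESeq2. Their median log2 fold change was -0.11, close to the -0.10 of the members. Of the other lists, 2 of 7 fibroblast genes (Pdgfra and Lum) were called higher, 1 of 6 endothelial genes (Tie1) lower, 2 of 7 smooth muscle and pericyte genes (Tagln and Cnn1) higher and 1 (Rgs5) lower, and none of the macrophage, adipocyte or erythroid genes was called by edgeR (0, 0 and 1 with an unadjusted p under 0.05) or by DESeq2. Of 11 skeletal muscle genes, 7 averaged under 1 CPM over the 10 hearts, among them Myh1, Myh2, Myh4, Tnnc2 and Myod1 with at most 6 reads in a heart. Actn3 and Tnni2 ran from 0.548 to 1.62 CPM and Atp2a1 from 2.31 to 3.64 CPM, and Ckm, which the heart also expresses, was the only one called.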

How the data were processed

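Whole hearts of 5 training and 5 sedentary mice were sequenced, and samples were grouped by the treatment in their labels. The authors aligned reads with STAR (version 2.7.10a) to mouse build GRCm39, and deposited counts per gene for each strand, of which the reverse-strand counts of uniquely mapped reads were used. The authors also deposited RSEM (version 1.3.3) expected counts and TPM per gene. Expected counts were rounded to whole numbers for the alternative, TPM gave levels between genes, and FPKM was not used. Gene symbols and coordinates came from GENCODE for GRCm39 (56017 of 56748 identifiers matched), and promoter windows from RefSeq for GRCm38.p6.

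Genes were filtered with filterByExpr, scaled by the trimmed mean of M-values and tested with edgeR (version 4.0.16, quasi-likelihood F test, no covariate) in R 4.3.3, with Benjamini-Hochberg adjustment over all 15454 genes and a threshold of FDR below 0.1. The authors used DESeq2, which was run here (version 1.42.0) as an alternative. The edgeR fit with each of its scalings (trimmed mean of M-values, the scaling of DESeq2, library totals) and the DESeq2 fit were tested on simulated data. The other alternative fits were not. CPM values are means ± SD over 5 hearts, and p-values measure the spread between mice.

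Values in every heart are given for called members, for the member with the highest TPM and the highest CPM of each class, and for the levels of 6 pairs of related genes. The members, marker lists and motifs were chosen with earlier results of these data known. Alternatives changed the scaling, filter, count type, tool, threshold and covariates or left out hearts. Data on voluntary running were not analysed here.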

Additional observations from a re-analysis of the deposited data

Results flagged for a closer look

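In each group of 5 hearts, a heart was marked when its gap to the nearest other heart, as a share of the whole range of the group, exceeded Dixon's 95% critical value. Of 98 groups of values tested, 8 were marked, and chance alone marks about 1 in 20. For 3 genes that fell, the marked heart was training heart 2. Actc1 stood at 9516 CPM in that heart, above 7402 to 7777 CPM in the other 4 training hearts, Pdlim5 at 686 CPM, above 543 to 566 CPM, and Pdlim1 at 46.9 CPM, above 40.3 to 41.8 CPM. Mypn was 182 CPM in training heart 1, below 229.6 to 234 CPM in the others of its group. Among sedentary hearts, Mybpc3 was 4043 CPM in heart 2 (others 3531 to 3639.7), Des 2011 CPM in heart 5 (others 2073 to 2079.8) and Synpo2l 327 CPM in heart 4 (others 228 to 251). The log2 ratio of Myoz1 to Myoz2 was -12.64 in sedentary heart 4, against -11.55 to -11.18 in the others, and rests on the 3 to 9 reads of Myoz1 in a heart.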

How the results depend on the processing

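Each called member kept its direction under the 20 alternatives run for it (19 for Tnni1, which DESeq2 gave no adjusted p). The number of members called moved from 11 (9 lower, 2 higher) to 7 (5 lower) with libraries scaled by their totals alone, to 0 with the atrial score as a covariate and to 2 (1 higher, 1 lower) without sedentary hearts 2 and 5, a setting chosen after seeing the data; it ran from 4 to 15 (3 to 13 lower, 1 to 2 higher) when 1 heart was left out, lowest without sedentary heart 3 and highest without training heart 2. The share called over all genes tested (7.01%) moved too, to 8.85% with library totals, 0.569% with the covariate, 1.79% without both hearts, 3.29% without sedentary heart 3, 8.02% without training heart 2 and 9.58% without sedentary heart 1. DESeq2 called 13, 1 of them higher: 9 of the 11, and Tpm1, Actn2, Myoz2 and Mypn (9.53% of all genes). By class, thin filament calls (4) were 2 to 4 with 1 heart left out and 0 with the covariate or without both hearts. Thick filament calls (0) were 0 to 1 with 1 heart left out. Z-disc calls (4) were 7 with DESeq2, 2 with library totals or FDR below 0.05, 0 with the covariate, 1 without both hearts and 1 to 8 with 1 heart left out. M-band calls (2) were 0 with the covariate, 1 without both hearts and 0 to 2 with 1 heart left out. Ring-finger calls (1) were 0 with library totals, with the covariate or without both hearts, and 0 to 1 with 1 heart left out. Calls among the other sarcomere genes (6) were 3 at FDR below 0.05, 2 with the covariate or without both hearts and 3 to 11 with 1 heart left out. With the replicate number as a block, 12 members (the same 11 and Mypn) and 10 other sarcomere genes were called (7.36% of all genes). The labels only number the hearts, correlations of same-numbered residuals ran from -0.10 to 0.16, and 3 of 10 hearts correlated best with their own number. With RSEM counts 9 members were called (6.21% of all genes). Ratios called (2) were 2 to 3 with 1 heart left out, and they were not run with the covariate or without both hearts. The median over the members ran from -0.13 to -0.069 with 1 heart left out and was -0.048 with library totals. A fit that leaves hearts out also has fewer hearts, and the cause of these moves was not tested.

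Of the members not called, 16 changed sign in some fit, called in neither, and 2 ratios did. As log2 fold changes, library totals gave 0.021 for Lmod3, 0.023 for Tmod1, 0.031 for Mybpc2, 0.014 for Smpx, 0.00019 for Flnc, 0.0065 for Myom3, 0.023 for Trim55 and 0.021 for Trim63. The covariate gave 0.14 for Lmod3, 0.047 for Myl2, -0.093 for Fhl1, 0.014 for Fhl2, -0.19 for Pdlim3, 0.015 for Trim55 and 0.081 for Trim63. No filter gave -0.0013 for Lmod2, -0.0056 for Mybpc3 and -0.0086 for Csrp3, RSEM -0.00075 for Lmod2 and -0.0010 for Csrp3, and the replicate block -0.00068 for Csrp3. Without sedentary hearts 2 and 5, Csrp3 was -0.012, Fhl1 -0.077, Lmod3 0.065, Pdlim3 -0.026 and Trim63 0.057. With 1 heart left out, Csrp3 ran from -0.027 to 0.022, Fhl1 -0.023 to 0.13, Flnc -0.15 to 0.038, Lmod2 -0.040 to 0.045, Lmod3 -0.084 to 0.023, Mybpc2 -0.12 to 0.030, Mybpc3 -0.012 to 0.040, Myom3 -0.13 to 0.083, Smpx -0.081 to 5.4e-05, Tcap -0.031 to 0.10 and Trim63 -0.071 to 0.013. The ratio of Mybpc2 to Mybpc3 ran from -0.13 to 0.018 and that of Myoz1 to Myoz2 from -0.38 to 0.18. Depth limits Tnni1 and Myoz1, whose counts are the lowest.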
